A study of Rattus norvegicus with 6 samples.

Results

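The neuronal subunits of the nicotinic acetylcholine receptor were followed in the substantia nigra pars compacta, the midbrain region whose dopamine neurons project to the striatum. Members were the probes whose RefSeq accession, without its version, is a rat transcript of 1 of 8 subunit genes (Chrna3, Chrna4, Chrna5, Chrna6, Chrna7, Chrnb2, Chrnb3 and Chrnb4). This gave 9 of the 33849 probes on each array, for 6 of the 8 genes. Chrna3 and Chrna7 had no probe under this rule and are not analysed here. The tissue came from 6 male Sprague Dawley rats aged 5 months, 1 array per rat. Rats 16, 13 and 9 received rotenone, a pesticide that blocks complex I of the mitochondrial respiratory chain. The dose was 0.5 mg/kg each day over 28 days, delivered by an osmotic pump under the skin. Rats 11, 7 and 1 received the solvent alone, dimethylsulfoxide and polyethylene glycol with a surfactant, from the same kind of pump. The study asked whether this lasting exposure changes gene expression in the region.

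Nicotinic receptors are pentameric ion channels that open when acetylcholine or nicotine binds. Neuronal receptors of the heteromeric kind are built from alpha subunits, which carry the main face of the binding site, and beta subunits, which complete it. Dopamine neurons of the rodent midbrain are known to carry heteromeric receptors with the alpha4 and beta2 subunits, some with alpha5, and others with alpha6 and beta3, which act on firing and on dopamine release. The alpha5 and beta3 subunits are accessory: they join receptors without forming a standard binding site of their own. In bulk tissue of this kind, fewer cells of a type and less RNA per cell cannot be told apart.

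The subunit genes lie in 2 clusters and as single genes. In the rat RefSeq gene table (assembly GRCr8, used here for names and for which genes are neighbours) Chrna5, Chrna3 and Chrnb4 are consecutive protein-coding genes on chromosome 8, and Chrna6 and Chrnb3 are consecutive on chromosome 16. RefSeq promoters, from 250 bases before to 50 after the gene start, were given for 6 of the 8 genes. The 4 below are shown because they set subunits that the arrays measured in every rat, Chrna5 and Chrnb2, beside subunits whose probes lay mostly or wholly at background, Chrna4 and Chrnb4. They are written 5′ to 3′ on the strand of the gene, from the RefSeq table of build GRCr8, and capitals mark the GC box defined after them.
Chrna5, chr8:64265629-64265928, plus strand: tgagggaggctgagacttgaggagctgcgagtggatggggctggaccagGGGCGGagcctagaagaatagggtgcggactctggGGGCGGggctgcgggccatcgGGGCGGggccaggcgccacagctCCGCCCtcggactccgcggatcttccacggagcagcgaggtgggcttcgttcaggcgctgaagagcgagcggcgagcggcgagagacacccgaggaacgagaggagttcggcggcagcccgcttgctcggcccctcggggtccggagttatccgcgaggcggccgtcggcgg
Chrnb2, chr2:177487257-177487556, minus strand: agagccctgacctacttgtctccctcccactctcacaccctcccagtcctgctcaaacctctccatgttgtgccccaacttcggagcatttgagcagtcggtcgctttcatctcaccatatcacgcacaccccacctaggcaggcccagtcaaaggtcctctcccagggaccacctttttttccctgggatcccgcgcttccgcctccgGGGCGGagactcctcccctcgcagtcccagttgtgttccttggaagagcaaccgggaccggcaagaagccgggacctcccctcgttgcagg
Chrna4, chr3:188534477-188534776, minus strand: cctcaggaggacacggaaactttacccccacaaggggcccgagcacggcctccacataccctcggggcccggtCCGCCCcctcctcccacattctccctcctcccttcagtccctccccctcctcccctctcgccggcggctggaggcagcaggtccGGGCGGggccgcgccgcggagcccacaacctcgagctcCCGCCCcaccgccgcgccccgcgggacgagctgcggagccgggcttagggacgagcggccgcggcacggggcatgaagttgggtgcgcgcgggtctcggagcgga
Chrnb4, chr8:64333060-64333359, minus strand: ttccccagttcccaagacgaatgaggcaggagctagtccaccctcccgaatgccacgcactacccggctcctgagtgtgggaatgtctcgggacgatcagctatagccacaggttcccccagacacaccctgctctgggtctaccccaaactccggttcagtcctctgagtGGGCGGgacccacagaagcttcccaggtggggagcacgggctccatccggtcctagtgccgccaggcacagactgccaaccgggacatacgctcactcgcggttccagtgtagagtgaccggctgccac

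The GC box, the binding motif of the SP1 family, was searched as GGGCGG on both strands, and each of the 6 subunit promoters held at least 1. The count was 4 in Chrna5, 1 in Chrnb2, 3 in Chrna4 and 1 in Chrnb4. Of all 33469 promoters of this length, 33.1% held it. The TATA box (TATAAA) was in 0 of the 6, against 14.2% of all promoters, and the site of NR4A2, a factor of dopamine neurons (AAAGGTCA), was in 0 of the 6, against 1.43%. All were searched on both strands, and no match of one motif overlapped a match of another. The share of G and C was 71.3% in Chrna5, 61.0% in Chrnb2, 74.7% in Chrna4 and 62.3% in Chrnb4, where the median promoter had 51.7%. A GC box was thus found in promoters of measured and of unmeasured subunits alike.

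The arrays measured between 44.2% and 51.5% of probes above background, meaning that the scanner did not mark the spot as near background or masked. The array of rotenone rat 16 stood apart: its mean correlation with the others across probes was 0.931, against 0.956 to 0.964 for the other 5, and its median net intensity was the lowest, at 11.7. The differences of the 3 testable subunits, Chrna1 and Acly are therefore also given without this rat. Of 12 dopamine neuron markers with a probe, 7 were above background in every rat. Th (tyrosine hydroxylase), which makes the dopamine precursor, lay at a normalized log2 level of 12.85 ± 0.27 with rotenone and 12.74 ± 0.22 with solvent (SD, n = 3 each), and the dopamine transporter Slc6a3 12.53 ± 0.068 with rotenone and 12.73 ± 0.11 with solvent. The vesicular transporter of acetylcholine, Slc18a3, a marker of cholinergic neurons, was above background in 0 of the 6 rats. Slc5a7, a second such marker, was above background in 1 solvent rat and 0 rotenone rats at probe GE1189563, and likewise at probe GE13099. The general neuron marker Snap25 was above background in no rat either, so a probe at background does not show that a cell type was absent.

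Chrna5, Chrna6 and Chrnb2 were above background in all 6 rats, Chrnb4 was so at 1 of its 3 probes in 2 rotenone rats, and Chrna4 and Chrnb3 in none. None of the 3 subunits that could be tested differed between rotenone and solvent beyond the spread among rats. Their log2 differences, rotenone minus solvent, were 0.32 for Chrna5, 0.11 for Chrna6 and 0.054 for Chrnb2. In limma's moderated test with Benjamini-Hochberg adjustment over 16708 probes, 0 of the 3 subunit probes passed an adjusted p of 0.05, where the share of all probes called was 0%. At an unadjusted p below 0.05 the subunits also gave 0 of 3, where 4.94% of all probes (825) fell below it. The median difference of the 3 tested subunit probes was 0.11, and that of all tested probes was 0.00892. A subunit probe enters this count only when at least 3 arrays measured it, so these 3 do not stand for the whole family. The spots of these 3 probes were weak. Their net intensity, the mean of the spot minus the median of its local background, was between 28.9 and 90.9, over a local background of 37 to 44. It exceeded 98.4% to 100% of the 256 negative control spots on the same array, whose 95th percentile was between 10.8 and 12.2 over the arrays.

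**Figure D1:**
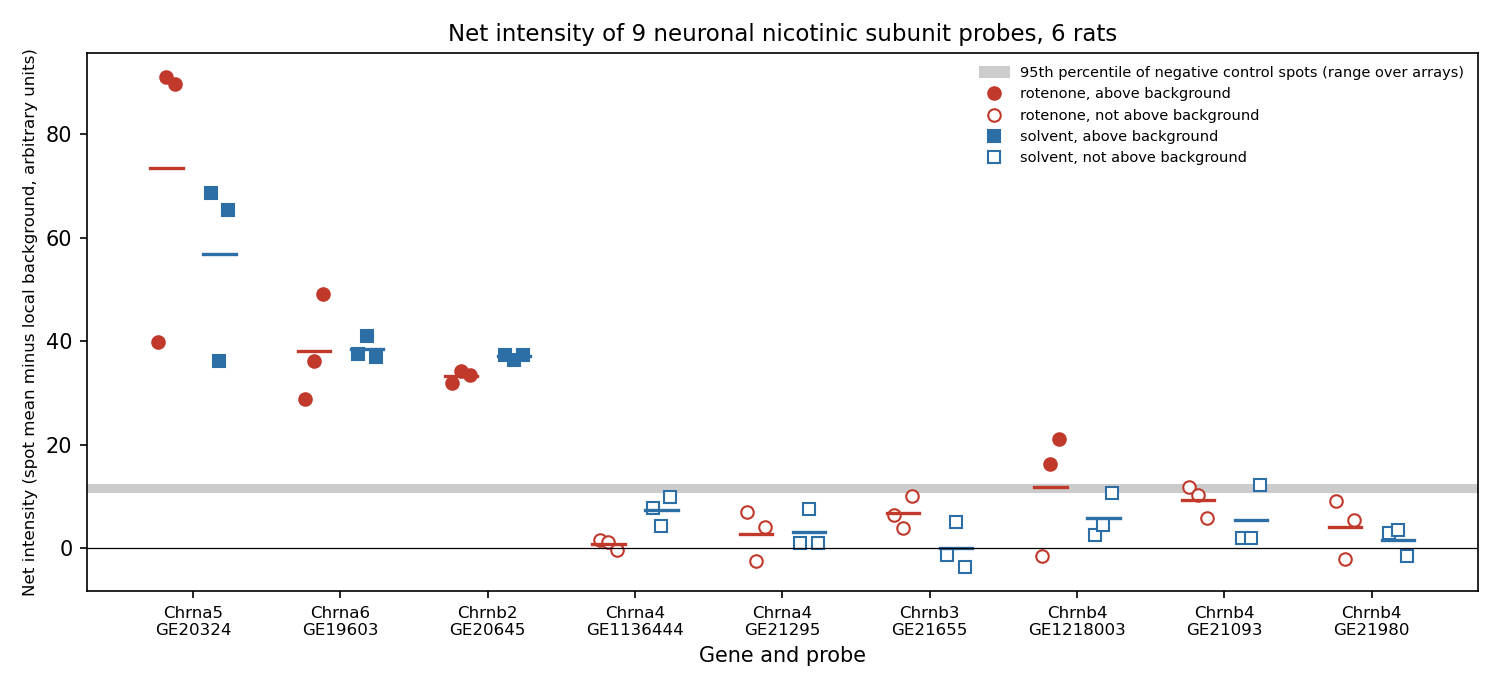
Net intensity (arbitrary units) of each of the 9 subunit probes in the 3 rotenone rats (circles) and the 3 solvent rats (squares). Filled symbols are above background by the scanner's mark, short lines are group means, and the grey band spans the 95th percentile of the negative control spots over the arrays (10.8 to 12.2). The 3 probes at the left lie between 28.9 and 90.9, and the other 6 between -3.54 and 21.1.

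Chrna5 encodes the accessory alpha5 subunit, which changes the calcium permeability and desensitisation of receptors that it joins. Its probe GE20324 had net intensities of 39.8, 90.9 and 89.7 in rotenone rats 9, 13 and 16, against 68.6, 36.2 and 65.4 in solvent rats 1, 7 and 11. Each group held 1 low rat, rotenone rat 9 and solvent rat 7, and the groups overlapped. The highest rat of the rotenone group was 2.28 times the lowest, and that of the solvent group 1.90 times. After background correction and quantile normalization the log2 intensity was 6.60, 7.15 and 7.44 in rotenone rats 9, 13 and 16, and 6.87, 6.46 and 6.89 in solvent rats 1, 7 and 11. The group means were 7.06 ± 0.43 with rotenone and 6.74 ± 0.24 with solvent (SD, n = 3 each). The difference of 0.32 had a 95% interval from -0.19 to 0.84 and an adjusted p of 0.895 in limma (unadjusted 0.195). It was 0.14 without rotenone rat 16 and 0.56 without rotenone rat 9, where limma's unadjusted p was 0.0311 and the adjusted p 0.772; over the 16 alternatives the adjusted p for Chrna5 lay between 0.772 and 1.00. Without solvent rat 7, the low solvent rat, the difference was 0.18. The scanner marked the spot as irregular on 5 of the 6 arrays, so that with irregular spots left out Chrna5 could not be tested.

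Chrna6 encodes the alpha6 subunit, which in the brain is largely restricted to dopamine neurons and other catecholamine cells and to the visual pathway. Its probe GE19603 had net intensities of 28.9, 36.2 and 49.1 in rotenone rats 9, 13 and 16, against 37.6, 40.9 and 36.9 in solvent rats 1, 7 and 11. The rotenone rats lay on both sides of the solvent rats, and rotenone rat 16 was the highest of the 6. On the normalized log2 scale the rotenone rats were at 6.42, 6.49 and 6.93 (rats 9, 13 and 16), and the solvent rats at 6.47, 6.54 and 6.51 (rats 1, 7 and 11). The group means were 6.62 ± 0.28 with rotenone and 6.50 ± 0.035 with solvent (SD, n = 3 each). The difference was 0.11, with a 95% interval from -0.29 to 0.51 and an adjusted p of 0.933 in limma. Without rotenone rat 16 it turned to -0.048. On the normalized scale the spread among the rotenone rats rests on that array, which was also apart from the others over all probes.

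Chrnb2 encodes the beta2 subunit, the partner of alpha4 and alpha6 in most high-affinity brain receptors. Its probe GE20645 had net intensities of 32.0, 34.2 and 33.5 in rotenone rats 9, 13 and 16, against 37.4, 36.4 and 37.4 in solvent rats 1, 7 and 11. On this unscaled measure the 3 rotenone rats were all below the 3 solvent rats. The share of all probes without overlap was not determined on this measure. The arrays also differed in overall brightness, with groups that overlapped, and its part in the Chrnb2 values was not tested. The median net intensity of all probes was 13.9, 14.8 and 11.7 in rotenone rats 9, 13 and 16, and 16.6, 16 and 14.6 in solvent rats 1, 7 and 11. After normalization the groups overlapped, with log2 intensities of 6.47, 6.46 and 6.68 in rotenone rats 9, 13 and 16, and 6.46, 6.47 and 6.52 in solvent rats 1, 7 and 11. The means were 6.54 ± 0.12 with rotenone and 6.48 ± 0.031 with solvent (SD, n = 3 each), and the difference was 0.054, with a 95% interval from -0.29 to 0.40 and an adjusted p of 0.963 in limma. It was -0.016 without rotenone rat 16 and -0.016 when the arrays were scaled to equal medians, so that no direction can be given for Chrnb2. Of the 3 measured subunits it varied least among rats, with an SD of 0.084 over the 6 arrays, against 0.19 for Chrna6 and 0.36 for Chrna5.

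These intervals are on a scale that an offset of 50 compresses, since the offset is as large as the signals themselves. With plain subtraction of the background, floored at 1, the rotenone-to-solvent ratio was 1.50 for Chrna5 (95% interval 0.685 to 3.28), 1.17 for Chrna6 (0.659 to 2.08) and 1.09 for Chrnb2 (0.724 to 1.65). On that scale a doubling of Chrna5 or Chrna6 lies inside the interval, while one of Chrnb2 lies outside it.

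**Figure D2:**
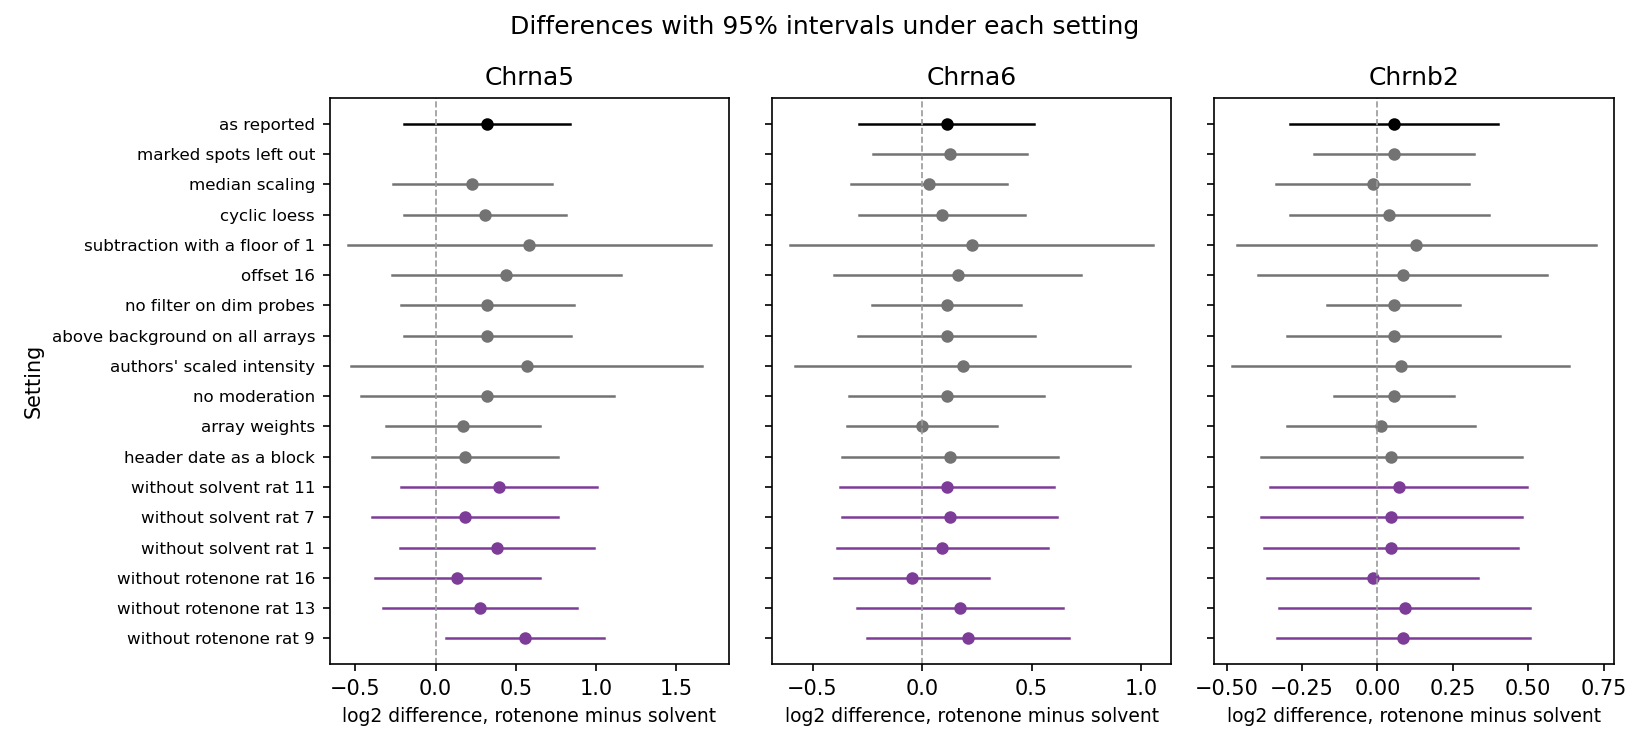
Log2 difference (rotenone minus solvent) of Chrna5, Chrna6 and Chrnb2 with its 95% interval, for the values reported (black), other processing (grey) and 1 rat left out (purple). Only the interval of Chrna5 without rotenone rat 9 lies wholly above 0 (0.064 to 1.05), and its adjusted p was 0.772. Chrna5 has no value where marked spots were left out.

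Chrna4 encodes the alpha4 subunit, the most widespread alpha partner of beta2 in the brain. Neither of its 2 probes was above background in any rat. Probe GE1136444 had net intensities of 1.57, 1.15 and -0.38 in rotenone rats 9, 13 and 16, against 7.87, 4.35 and 9.97 in solvent rats 1, 7 and 11. These values did not overlap between the groups, but all lay below the 95th percentile of the negative control spots. The normalized values of this probe did not overlap either. The same held for 9.97% of tested probes, but this probe was too dim to be among them. The share among such dim probes was not determined. Probe GE21295 had 6.97, -2.46 and 4.03 in rotenone rats 9, 13 and 16, against 1.00, 7.67 and 1.07 in solvent rats 1, 7 and 11, and its groups overlapped. The 2 probes of this gene thus gave no common order, and alpha4 mRNA was not detectable with either of them at this signal. In a fit with no filter on dim probes, GE1136444 differed by -0.15 (95% interval -0.34 to 0.048) and GE21295 by 0.0054 (interval -0.23 to 0.24), with adjusted p values of 0.937 and 0.999 in limma.

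Chrnb3 encodes the beta3 subunit, the accessory partner of alpha6, and its gene adjoins Chrna6. Its only probe, GE21655, was not above background in any rat. The net intensities were 6.44, 4.00 and 10.2 in rotenone rats 9, 13 and 16, against -1.29, 5.15 and -3.54 in solvent rats 1, 7 and 11. All fell within the range of the negative control spots, and the groups overlapped. In the fit with no filter its difference was 0.19 (95% interval -0.047 to 0.42; adjusted p 0.937 in limma).

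Chrnb4 encodes the beta4 subunit, which pairs with alpha3 in autonomic ganglia and in the habenula. Its probe GE1218003 had net intensities of -1.43, 16.2 and 21.1 in rotenone rats 9, 13 and 16, against 2.60, 4.55 and 10.6 in solvent rats 1, 7 and 11. Rotenone rats 13 and 16 were above background, and rotenone rat 9 and the 3 solvent rats were not. Rotenone rat 9 was the lowest of all 6, so that the groups overlapped. No fold is given, since the rotenone group holds a rat below background too. The other 2 probes of Chrnb4 were above background in none of the 6 rats. GE21093 had 11.9, 10.3 and 5.79 in rotenone rats 9, 13 and 16, against 2.07, 2.00 and 12.2 in solvent rats 1, 7 and 11. GE21980 had 9.24, -2.14 and 5.47 in rotenone rats 9, 13 and 16, against 3.00, 3.64 and -1.55 in solvent rats 1, 7 and 11. The groups overlapped at both, and values at background have no order to compare with that of GE1218003. In the fit with no filter the 3 probes differed by 0.18, 0.11 and 0.074, in the order named, with adjusted p values from 0.937 to 0.948 in limma, and the interval of GE1218003 ran from -0.22 to 0.58.

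Genes with the most similar values over the 6 arrays were sought among 1221 probes of named genes that were above background on every array and had an SD of at least 0.2. Likeness was the root mean square difference of the deviations from each gene's own mean, on the log2 scale, and it is a description with no test. The nearest genes were picked as the smallest values, so they lie below the median candidate by selection. For Chrna5 the nearest were Suox, the mitochondrial sulfite oxidase, at 0.047, Tacr1, the receptor of substance P, at 0.091, and Egr1, an immediate early transcription factor, at 0.10, where the median candidate was at 0.46. In all 3 genes rotenone rat 16 was the highest rat and rotenone rat 13 the next. For Chrna6 the nearest were Bik (0.042), Dbn1 (0.054) and Nat8 (0.057), with a median candidate at 0.35, and their shared feature was a high value in rotenone rat 16. For Chrnb2, whose own SD was 0.084, the minimum SD set for candidates leaves no gene that could lie closer than that SD, so the measure is not informative and no genes are named.

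**Figure D3:**
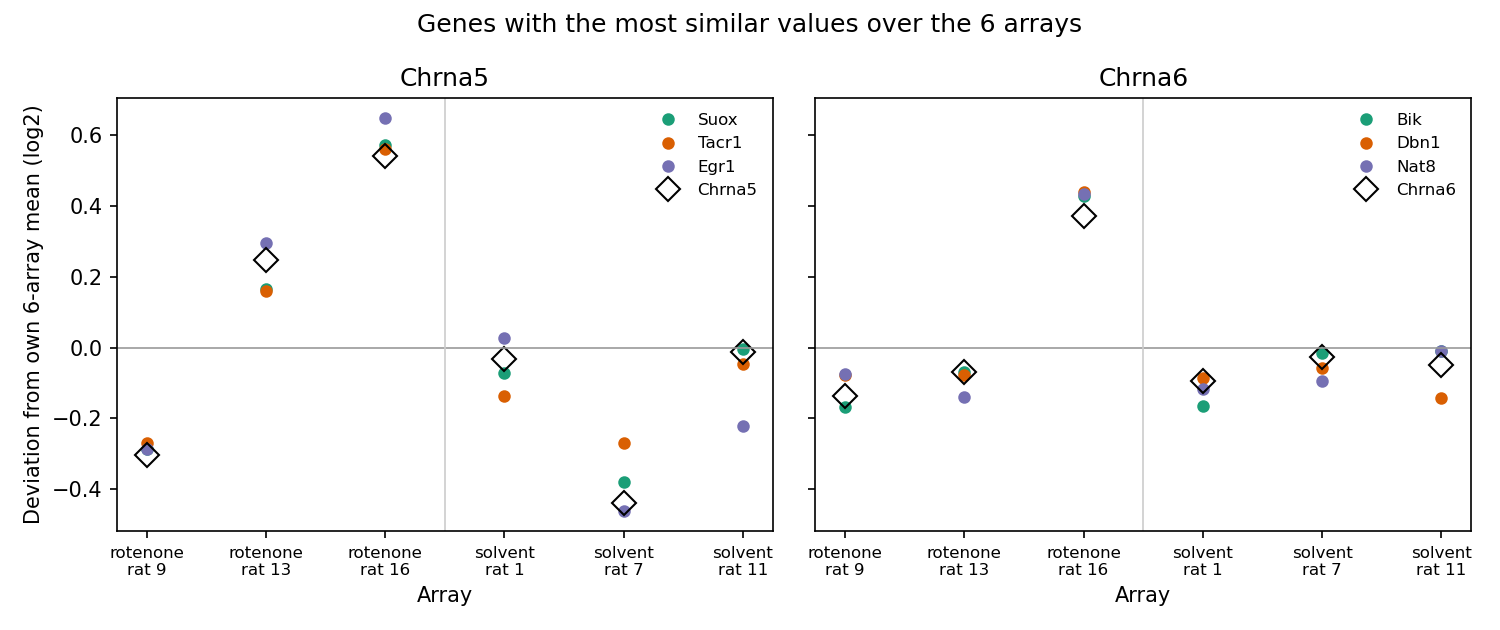
Deviation from the gene's own mean over 6 arrays (log2) for Chrna5 and Chrna6 (diamonds) and the 3 genes nearest to each (dots), in 3 rotenone and 3 solvent rats. Rotenone rat 16 is the highest array in both panels, and in the Chrna5 panel rotenone rat 9 and solvent rat 7 are the 2 lowest arrays of all 4 genes.

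The other subunits, known from muscle and from inner ear hair cells, were represented by 9 probes for 7 genes, of which 5 probes were above background in no rat. Of the 2 genes tested, Chrnb1 and Chrna1, 0 passed the adjusted test. Chrnb1, the beta subunit of the muscle receptor, had net intensities at probe GE1257790 of 7.86, 13.5 and 16 in rotenone rats 9, 13 and 16, against 35.0, 30.2 and 58.3 in solvent rats 1, 7 and 11. The 3 solvent rats were above background and the 3 rotenone rats were not. The groups did not overlap, also on the normalized scale, where those of 9.97% of all tested probes did not. In these 6 rats the observed solvent mean was at least 1.32-fold higher (6.13 ± 0.14 with rotenone and 6.53 ± 0.24 with solvent on the normalized log2 scale, SD, n = 3 each), with an adjusted p of 0.895 in limma. The 1.32 leaves the spread among rats out of account, so it is no minimum for a difference beyond these rats. This bound sets each rotenone array at the weakest signal above background, or at the probe's own value where that is higher. The probe entered the test only through the solvent group, where it was above background, so its p supports no difference. The second Chrnb1 probe, GE19803, was above background in no rat, at -0.30, 0.15 and 5.00 in rotenone rats 9, 13 and 16, against 4.87, 6.17 and 5.50 in solvent rats 1, 7 and 11. Chrna1, the alpha subunit of the muscle receptor, had net intensities of 63.6, 63.2 and 129.5 in rotenone rats 9, 13 and 16, against 70.2, 45.6 and 48.0 in solvent rats 1, 7 and 11. The difference was 0.47 (95% interval -0.082 to 1.02; adjusted p 0.895 in limma), and it was 0.17 without rotenone rat 16, the highest rat.

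**Figure D4:**
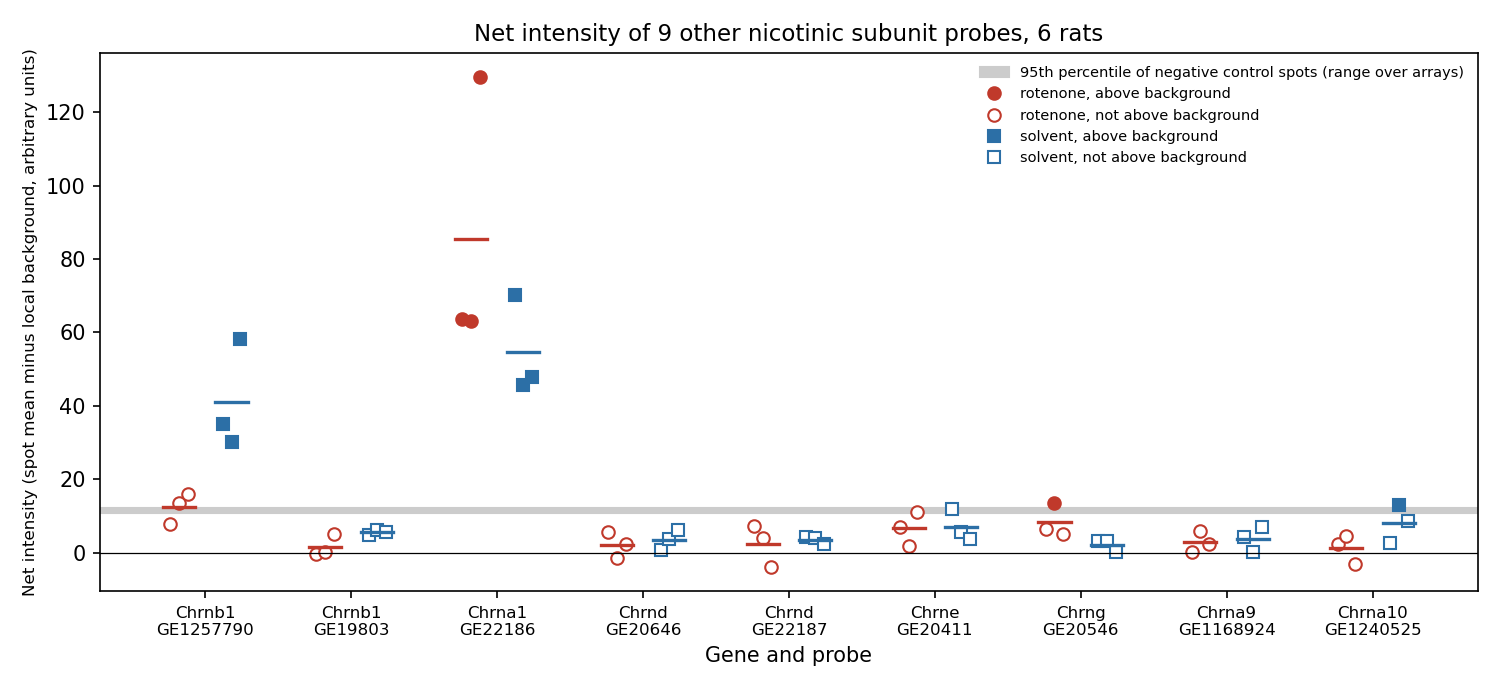
Net intensity (arbitrary units) of the 9 probes for other nicotinic subunits in the 3 rotenone rats (circles) and the 3 solvent rats (squares), with symbols, lines and band as in the plot of the neuronal subunits. At Chrnb1 probe GE1257790 the rotenone rats lie between 7.86 and 16 and the solvent rats between 30.2 and 58.3, while the second Chrnb1 probe lies at background in both groups.

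Other genes of acetylcholine signalling were mostly near background. The muscarinic receptors, the G protein coupled receptors of acetylcholine, had probes for 4 of 5 genes (Chrm1, Chrm2, Chrm3 and Chrm5), and all 4 were above background in 0 of the 6 rats. Chat and Ache, which make and break down acetylcholine, had no named probe and are not analysed here. Of 7 genes of acetylcholine synthesis, transport and breakdown with a probe, 3 could be tested, 3 had higher means with rotenone and 0 passed the adjusted test. Acly, which makes acetyl-CoA in the cytosol of every cell, had normalized log2 intensities of 10.45, 10.24 and 10.98 in rotenone rats 9, 13 and 16, against 9.95, 10.00 and 9.94 in solvent rats 1, 7 and 11. The 3 rotenone rats were all above the 3 solvent rats, where the groups did not overlap for 9.97% of all tested probes. The difference was 0.59 ± 0.20 (SE), with an unadjusted p of 0.0156 and an adjusted p of 0.895 in limma, and it was 0.38 without rotenone rat 16. An unadjusted p below 0.05 was found for 4.94% of all tested probes. Pcyt1a, an enzyme of phosphatidylcholine synthesis, differed by 0.27 at its brighter probe, and the choline transporter Slc44a1 by 0.021. Of the genes for nicotinic receptor assembly and modulation, 3 of 16 had a probe and 2 were tested, and 0 passed: the 14-3-3 protein gene Ywhah, whose product binds the alpha4 subunit, differed by 0.22, and Vsnl1, a calcium sensor that also binds alpha4, by -0.21.

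Markers of the cell types that can carry these receptors are given beside the subunit values, and their part in them was not tested. Over the 12 dopamine neuron markers with a probe, the median normalized log2 intensity was 9.31, 8.80 and 8.96 in rotenone rats 9, 13 and 16, against 9.38, 9.20 and 9.27 in solvent rats 1, 7 and 11. On every array this median lay midway between Slc18a2 (difference -0.54) and Ret (0.020). It therefore follows those 2 genes and does not stand for the list. Of the 10 markers tested, 0 passed, 4 had higher and 6 lower means with rotenone, and the median difference was -0.18. The 4 higher were Drd2 (0.23), Th (0.12), Ddc (0.068) and Ret (0.020). Unadjusted, 2 of 10 had p below 0.05, where 4.94% of all probes did, and both had lower means with rotenone. Sncg, which encodes gamma-synuclein, had normalized log2 intensities of 10.75, 10.77 and 9.90 in rotenone rats 9, 13 and 16, against 11.10, 11.14 and 11.19 in solvent rats 1, 7 and 11 (difference -0.67, limma p 0.0169, adjusted p 0.895). Nr4a2, a transcription factor of dopamine neurons, had 7.44, 6.39 and 5.94 in rotenone rats 9, 13 and 16, against 7.54, 7.39 and 7.20 in solvent rats 1, 7 and 11 (difference -0.79, limma p 0.0343, adjusted p 0.895). Rotenone rat 16 was the lowest rat for both genes, and the groups overlapped for Nr4a2 but not for Sncg. The values of 2 of the 10 markers, Sncg and Slc6a3, did not overlap between the groups, where those of 9.97% of all tested probes did not. Slc18a2, the vesicular monoamine transporter, differed by -0.54 (limma p 0.0667, adjusted p 0.895). Over the 7 GABA neuron markers the median was 6.41 to 7.28 in the rotenone rats and 6.73 to 7.07 in the solvent rats. All 7 were tested, and 2 had higher and 5 lower means with rotenone. Unadjusted p was below 0.05 for 1 of the 7, Gad2 (difference -0.41, limma p 0.0401, adjusted p 0.895). Gad2 was also the 1 of the 7 without overlap between the groups, and was above background in 1 rotenone and 2 solvent rats. For general neuron markers (5 genes) the median was 8.12 to 8.91 with rotenone and 8.51 to 9.09 with solvent. On every array that median was the value of Nefl. Rotenone rat 16, the highest rat for Chrna5 on the normalized scale and for Chrna6, was the lowest rat for Nefl, Stmn2 and Nefm. It was not the lowest for Syp, at 10.35 against 10.05 and 10.27 in rotenone rats 9 and 13. Snap25 was above background in no rat. For astrocyte markers (9 genes) the median was 8.59 to 8.89 with rotenone and 8.42 to 8.77 with solvent, and for oligodendrocyte markers (9 genes) 8.92 to 9.24 with rotenone and 8.69 to 9.57 with solvent. The astrocyte median was the value of Aldh1l1 (difference 0.26) on every array but that of solvent rat 1. The oligodendrocyte median was the value of Mobp (difference 0.25) in the solvent rats and rotenone rat 13. These medians thus do not stand for their lists, whose median differences over the markers tested were 0.053 for astrocytes and -0.26 for oligodendrocytes. Of the 8 oligodendrocyte markers tested, 2 had higher and 6 lower means with rotenone. Unadjusted p was below 0.05 for 1 of the 8, Mal (difference -0.66, limma p 0.0366, adjusted p 0.895), whose groups overlapped. Over all 13 other lists, 52 genes were tested and 0 passed the adjusted test.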

How the data were processed

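The deposited scanner files give, as linear intensity values, each spot's mean, its local background median, their difference and that difference scaled by the authors to about the array's median. Per the labels' protocols, laser-captured total RNA (2 µg) was amplified by in vitro transcription and labelled with biotin before hybridisation to one-colour arrays. For the scanner software, the sources used here name none. In the deposited value table, a linear intensity centred on a median near 1, the column of solvent rat 7 equalled its scanner file for 0.898% of probes and the other 5 columns for 100%, so levels were taken from the scanner files.

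Probes were named by RefSeq accession through the GRCr8 gene table (4675 probes, 4013 genes). Background was corrected with normexp (offset 50), control spots were dropped, and log2 values were quantile-normalized. Irregular marks covered 29.4% to 36.3% of probes per array and most of the brightest spots, so such spots were kept. Probes above background on at least 3 of 6 arrays were tested by the two-sided moderated test of limma (version 3.58.1, under R 4.3.3), and p-values were adjusted by Benjamini-Hochberg across those 16708 probes. The script was tested on simulated data. For groups of 3 rats, 0.1 is the smallest p of an exact permutation test, and precision is limited by how few arrays there are.

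The members and gene lists were chosen with earlier results of these data known. All 9 subunit probes are named. Of other lists, up to 3 genes with the smallest p may be named, with fixed markers and the muscarinic receptors, 1 probe per gene (the brightest). Alternatives were left-out marked spots, median scaling, cyclic loess, plain subtraction, an offset of 16, no filter or a stricter filter, the authors' scaled intensity (floored at 0.1), no moderation, array weights, a date block and each rat left out.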

Additional observations from a re-analysis of the deposited data

How the results depend on the processing

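Over 17 alternatives, limma called 0 subunit probes at an adjusted p of 0.05, with unadjusted p values below 0.05 for 1 subunit probe (Chrna5, without rotenone rat 9). The count of all probes called was 0 in 16 of the 17, and lay between 0 and 3 with a rat left out; the 3 came without solvent rat 1. Chrna5 was higher in mean with rotenone in each of its 16 alternatives, by 0.14 to 0.58 on the log2 scale, and could not be tested with marked spots left out. Chrna6 was higher in 16 of 17 (up to 0.23), but by only 0.00059 with array weights. With 1 rat left out it lay between -0.048, without rotenone rat 16, and 0.21. Chrnb2 was higher in 15 of 17 (up to 0.13, and 0.012 with array weights). It lay between -0.016, without rotenone rat 16, and 0.091 with 1 rat left out, and was -0.016 with median scaling. The cause was not tested. Chrnb1 probe GE1257790 was measured on only 3 arrays and so left the test whenever a solvent rat was left out. The date in the file headers, whose meaning the headers do not state, was the same for 5 arrays and another for solvent rat 7, so that as a block it gave differences close to those without that rat (0.18 for Chrna5). No paired analysis was possible because the labels pair no rotenone rat with a solvent rat. The weak signals, near the negative controls for 6 of the 9 subunit probes, limit what can be seen of Chrna4, Chrnb3 and Chrnb4.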
